A study of Mus musculus with 4 samples.

Results

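Hyaluronan is a long, unsulphated sugar polymer of the extracellular matrix, and lubricin is a mucin-like glycoprotein that coats sliding tissue surfaces. The 10 genes described here make, cut, bind or lubricate this matrix: the hyaluronan synthases Has1 and Has2, the hyaluronidases Hyal1 and Hyal2, the surface receptor Cd44, the binding and cross-linking proteins Tnfaip6, Vcan, Hapln1 and Hapln3, and Prg4, which encodes lubricin. They were taken by symbol from the 32285 genes of each count matrix, and all 10 matched a single row. Single-cell RNA-seq was run on the tibial muscle of Nse-Bmp4 mice on a C57BL/6 background, aged 6 to 8 weeks, in which the neuron-specific enolase (Nse) promoter drives the bone morphogenetic protein gene Bmp4. Besides an Uninjured library there were 3 injured ones, taken 1, 3 and 7 days after injection (dpi) of cardiotoxin, a muscle-lysing snake venom toxin that leads to heterotopic ossification (HO, bone formed in soft tissue) in this model. Each library pooled 3 tibial muscles, all 4 carried the transgene and no wild-type library was analysed here. There was 1 library per time point, so no test between time points was possible, and the 95% intervals given below cover counting error only.

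In loose connective tissue, hyaluronan is spun out through the plasma membrane by the synthases and held at the cell surface by CD44. Versican (Vcan) and aggrecan, large proteoglycans, bind along its chain and are clamped there by link proteins such as HAPLN1, while TSG-6 (Tnfaip6) transfers heavy chains of inter-alpha-inhibitor onto it. Hyaluronidases and the proteins CEMIP and CEMIP2 break the chain down. Hyaluronan-rich matrix is known to appear early in wounds, and a matrix of aggrecan, link protein and hyaluronan fills cartilage.

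After filters, 52852 cells were kept, and 44962 of them (85.1%) fell into a class by gates on marker genes. The part of kept cells that was gated ranged from 80.2% to 95.9% over the libraries. The mesenchymal stem cell (MSC) lineage, gated on at least 5 of 8 mesenchymal markers (Pdgfra, Prrx1, Dcn, Lum, Col1a1, Col3a1, Mmp2 and Serpinf1), held 8300 cells in the Uninjured library, 3702 at 1 dpi, 6020 at 3 dpi and 10205 at 7 dpi. Chondrocytes, gated on at least 4 of 7 cartilage markers, were found only at 7 dpi (3731 cells). Median UMIs per MSC lineage cell went from 9148 in the Uninjured library to 8116, 5854.5 and 3457 at 1, 3 and 7 dpi, so that shares of cells with a UMI are also given after thinning each cell to 1000 UMIs. Levels (CPM) are UMIs of a gene per 1000000 UMIs of the class in a library. B cells served as the background of free RNA for the genes they do not make. Libraries shared 30 to 95 cell barcodes per pair.

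Promoter sequence was printed for Has1, Cd44 and Vcan, the synthase, the receptor and the proteoglycan that were each highest at 3 dpi in the MSC lineage. RefSeq promoters (GRCm38.p6) were matched for 8 of the 10 genes. The 250 bases before the start site lie on the minus strand at chr17:17855189-17855438 for Has1, chr2:102901666-102901915 for Cd44 and chr13:89742513-89742762 for Vcan. Capitals mark matches, on either strand, to the letters searched: AP-1 (TGANTCA), cyclic AMP response element (CRE, TGACGTCA), the kappaB motif, the TATA box with the letters TATAAA, the GC box with the letters GGGCGG and the CCAAT box, whose name is its letters.
Has1: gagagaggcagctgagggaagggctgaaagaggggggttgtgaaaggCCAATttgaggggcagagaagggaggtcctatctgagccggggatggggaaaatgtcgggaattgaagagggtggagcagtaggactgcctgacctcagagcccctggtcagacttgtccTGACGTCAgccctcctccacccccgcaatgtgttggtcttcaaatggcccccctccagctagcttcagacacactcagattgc
Cd44: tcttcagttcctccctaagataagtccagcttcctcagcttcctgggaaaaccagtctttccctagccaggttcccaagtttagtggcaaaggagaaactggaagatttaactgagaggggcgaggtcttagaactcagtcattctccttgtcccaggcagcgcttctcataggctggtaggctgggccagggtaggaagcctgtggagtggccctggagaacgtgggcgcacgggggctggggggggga
Vcan: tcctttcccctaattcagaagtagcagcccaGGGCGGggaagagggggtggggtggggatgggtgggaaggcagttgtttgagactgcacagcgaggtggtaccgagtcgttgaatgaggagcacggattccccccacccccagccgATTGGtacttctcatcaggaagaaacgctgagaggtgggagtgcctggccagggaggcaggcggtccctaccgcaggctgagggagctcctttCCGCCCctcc
The Has1 window held a full CRE 83 bases before the start, a motif present in 1.55% of 32851 promoter windows of the same length, and a CCAAT box 203 bases before it. The Vcan window held GC boxes 219 and 10 bases before the start and a CCAAT box at 103 bases, motifs present in 32.7% and 33.8% of all windows. The Cd44 window held none of the 6. AP-1 letters, present in 6.75% of all windows, were found among the 8 matched genes in Tnfaip6, 142 bases before its start. No binding was measured, and these matches are a description of letters.

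The synthase Has1 was highest in the MSC lineage among the classes of every library. Its level there was 375 CPM (371 to 379) in the Uninjured library, 449.9 CPM (443 to 457) at 1 dpi, 543 CPM (536 to 549) at 3 dpi and 160.0 CPM (157 to 163) at 7 dpi. The 3 dpi library was the highest and the 7 dpi library the lowest. The level at 7 dpi was 3.39-fold lower than at 3 dpi and 2.34-fold lower than in the Uninjured library. In B cells the level stayed between 8.92 and 21.9 CPM, and monocytes and macrophages, neutrophils, dendritic, endothelial, NK and T cells gave 0 to 20.8 CPM. Has1 UMIs were found in 44.9%, 49.1%, 61.2% and 28.7% of MSC lineage cells in time order. After thinning the shares were 20.9%, 22.8%, 30.8% and 11.3%, against 1.04% to 3.24% of B cells. Schwann and myogenic cells had up to 32.6 and 47.3 CPM.

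Has1 differed strongly between fibroblast subsets before injury, and this difference was smallest at 3 dpi. Adventitial fibroblasts, gated on Pi16, Dpp4, Cd55, Sema3c, Anxa3 and Efhd1, had 783, 832, 690.5 and 386 CPM in time order. Interstitial fibroblasts, gated on Col15a1, Smoc2, Hsd11b1, Cxcl12, G0s2 and Apod, had 61.6, 186, 434 and 132 CPM. The ratio of adventitial to interstitial cells was thus 12.7 (12.1 to 13.4) in the Uninjured library, 4.48 (4.27 to 4.71) at 1 dpi, 1.59 (1.54 to 1.64) at 3 dpi and 2.92 (2.76 to 3.10) at 7 dpi. Mean thinned Has1 UMIs per adventitial cell were 0.729, 0.805, 0.787 and 0.333 in time order. Per interstitial cell they were 0.0546, 0.152, 0.324 and 0.125. On these means the subsets lay further apart at 3 dpi than 1.59-fold, and 3 and 7 dpi were more alike. Within interstitial fibroblasts Has1 was 3.01-fold higher at 1 dpi than in the Uninjured library and 7.04-fold higher at 3 dpi (6.68 to 7.42). Within adventitial fibroblasts it was 1.13-fold lower at 3 dpi than in the Uninjured library. The thinned means of these cells (0.729 and 0.787) went the other way, so the direction is uncertain. Adventitial cells made up 29.1%, 18.6%, 18.1% and 7.65% of the MSC lineage in time order, and interstitial cells 39.3%, 42.4%, 44.1% and 23.0%. The summed level of the gate markers in the MSC lineage also differed, from 3097 CPM in the Uninjured library to 480.1 CPM at 7 dpi for the adventitial list and from 3887 to 984 CPM for the interstitial list, and its part in these differences was not tested. Within gated interstitial cells their list summed to 7583, 6818, 3724 and 1925 CPM in time order. Gated adventitial cells had 7315, 4563, 3191 and 1921 CPM of theirs. The cells gated at 3 and 7 dpi were thus not fully like those gated before. At 7 dpi the gated adventitial and interstitial cells had medians of 5803 and 6340 UMIs, against 3457 in the MSC lineage. In the Uninjured library these medians were 9254, 8371 and 9148. The gates need detected markers, and the part of depth in the subset shares was not tested. Cells positive for at least 3 of 6 proliferation markers (cycling MSCs) had 360 CPM in the Uninjured library, 599 CPM at 1 dpi, 425 CPM at 3 dpi and 162 CPM at 7 dpi.

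**Figure D1:**
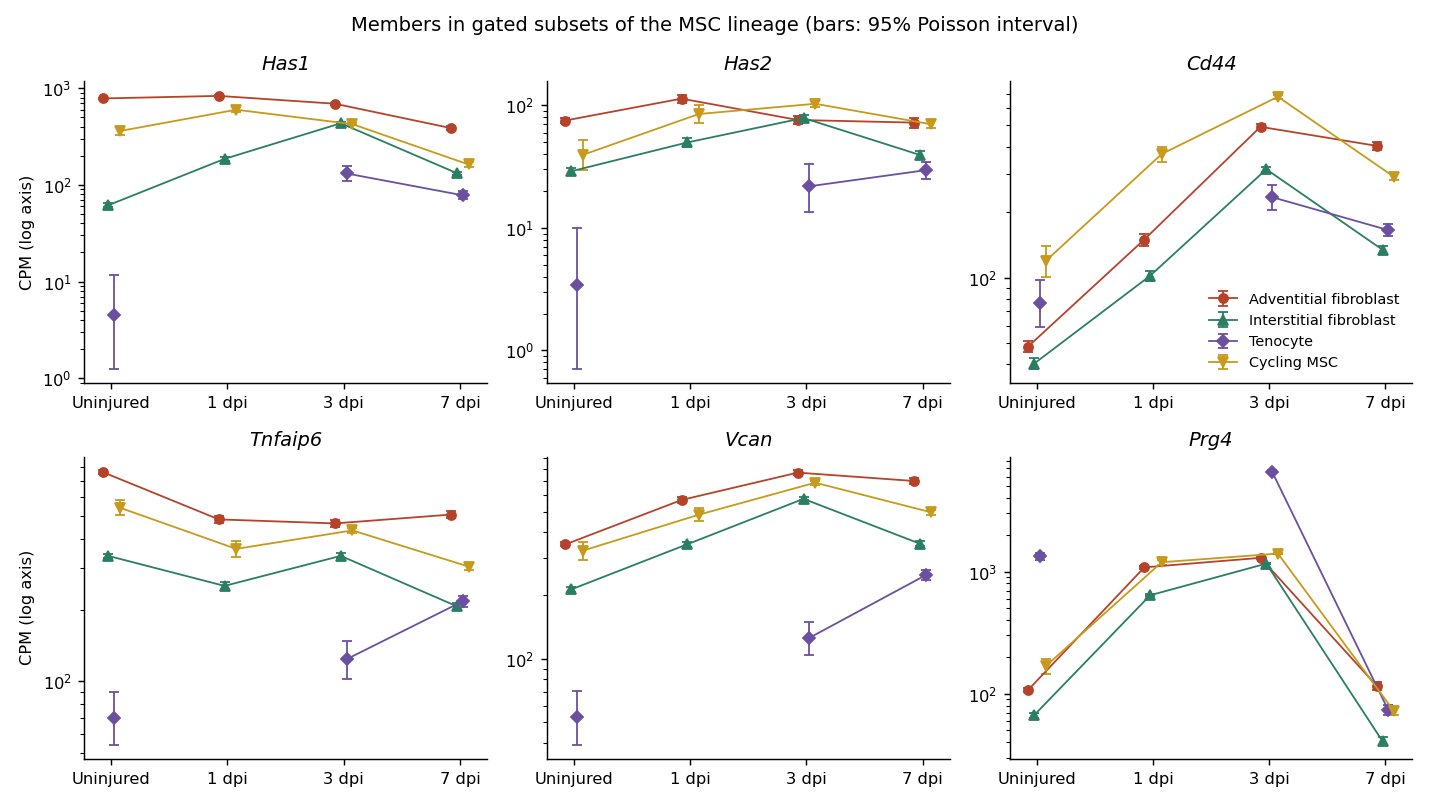
Level of 6 genes in CPM (log axis) by library in adventitial and interstitial fibroblasts, tenocytes and cycling MSCs, with exact Poisson 95% intervals as bars; tenocytes at 1 dpi were under 50 cells and are left out. Adventitial and interstitial Has1 levels lay 12.7-fold apart in the Uninjured library and 1.59-fold apart at 3 dpi, while Prg4 was highest in tenocytes in the Uninjured library and at 3 dpi. With thinned cells, Has1 means at 3 dpi (0.787 and 0.324 UMIs per cell) lay further apart than 1.59-fold.

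Has2, the second synthase, was above the level of B cells in the MSC lineage, in Schwann cells, in chondrocytes at 7 dpi (37.8 CPM) and in myogenic cells at 3 dpi (19.8 CPM). Its MSC lineage level was 50.5 CPM (48.9 to 52.1) in the Uninjured library, 75.8 CPM (72.9 to 78.8) at 1 dpi, 76.8 CPM (74.4 to 79.1) at 3 dpi and 49.2 CPM (47.4 to 51.1) at 7 dpi. As reported here the 1 and 3 dpi libraries did not differ beyond counting error (log2 0.02), but 3 dpi was the lower with thinned cells (log2 -0.39, -0.62 to -0.15), with linear SD limits (-0.12) and with a looser gate (-0.10). The interval of the ratio of 7 dpi to the Uninjured library held 1 (0.975, 0.928 to 1.02). Schwann cells had 32.4, 29.2, 41.5 and 57.2 CPM in time order, whereas B cells had 0 to 3.98 CPM. In interstitial fibroblasts Has2 was 2.72-fold higher at 3 dpi than in the Uninjured library (29.0 against 78.9 CPM). In adventitial fibroblasts the levels of these libraries were 75.3 and 76.1 CPM. With thinned cells, interstitial fibroblasts at 3 dpi had a mean of 0.0478 Has2 UMIs per cell, against 0.0570 in the MSC lineage. In CPM they were not below the MSC lineage (78.9 against 76.8). The interstitial level at 3 dpi thus depended on depth, and the 2.72-fold difference was not tested with thinned cells. Has2 in cycling MSCs was 0.778 of that in the remaining MSC lineage cells in the Uninjured library (with an interval that held 1), 1.13-fold at 1 dpi (0.948 to 1.34), 1.51-fold at 3 dpi (1.42 to 1.62) and 1.56-fold at 7 dpi (1.43 to 1.70), so that only the last 2 lay above 1. Cycling cells had more UMIs per cell in each library (medians of 5200 to 19029), and the part of depth was not tested. For the antisense gene Has2os, whose sum profile was among the most similar to that of Has2, strand-specific counting was not stated in the sources used here, so its reads and those of Has2 may not be separable.

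Of the hyaluronidases, Hyal2, a surface-anchored enzyme that cuts long hyaluronan chains, was higher in endothelial cells than in the MSC lineage in the 3 libraries that allowed the comparison. Endothelial cells had 71.8 CPM at 1 dpi (67 cells), 97.5 CPM at 3 dpi (121 cells) and 86.1 CPM at 7 dpi (60 cells), and the Uninjured library held only 21 endothelial cells. These levels were 9.82-fold (6.35 to 14.6), 10.0-fold (7.06 to 13.8) and 4.50-fold (2.70 to 7.06) those of the MSC lineage. In the MSC lineage Hyal2 stood at 7.23 CPM (6.65 to 7.86) in the Uninjured library, 7.31 CPM (6.43 to 8.27) at 1 dpi, 9.75 CPM (8.94 to 10.6) at 3 dpi and 19.1 CPM (18.0 to 20.3) at 7 dpi. The 7 dpi level was 2.64-fold that of the Uninjured library (2.39 to 2.93), and the Uninjured and 1 dpi libraries did not differ beyond counting error (log2 0.01). With cells thinned to 1000 UMIs the log2 ratio of 1 dpi to the Uninjured library was 0.58, and that of 3 to 1 dpi was -0.30 in place of 0.42. Each of these libraries held fewer than 100 thinned Hyal2 UMIs, so the order of 1 and 3 dpi is uncertain. In myogenic cells the level was 5.75, 4.12, 20.1 and 16.2 CPM in time order. Hyal1, a lysosomal hyaluronidase, stayed between 3.02 and 4.47 CPM in the MSC lineage, and B cells had 2.68 to 5.35 CPM, so that it was not separable from background there as a class. It was above the level of B cells at 1 dpi in interstitial fibroblasts (2.23-fold, 1.21 to 4.51) and in monocytes and macrophages (3.10-fold, 1.70 to 6.18). Endothelial cells had 4.85-fold the MSC lineage level at 3 dpi (1.75 to 10.8) and 6.26-fold at 7 dpi (2.01 to 14.8), on 6 and 5 UMIs. Exons of Hyal1 overlap those of Hyal3 and Naa80 on the same strand, and its counts are uncertain for this reason as well.

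Cd44, the main hyaluronan receptor, was found in mesenchymal, immune and myogenic cells, and in the MSC lineage it was highest at 3 dpi. Its MSC lineage level was 45.7 CPM (44.2 to 47.2) in the Uninjured library, 117 CPM (114 to 121) at 1 dpi, 383 CPM (378 to 389) at 3 dpi and 206 CPM (203 to 210) at 7 dpi. The 3 dpi level was 8.39-fold that of the Uninjured library (8.10 to 8.70). The first step (2.57-fold at 1 dpi) came to log2 0.99 with thinned cells, against 1.36, and the difference between 7 and 3 dpi to log2 -0.24, against -0.89. At 7 dpi adventitial fibroblasts had 403 CPM against 134 CPM in interstitial fibroblasts, a ratio of 3.00 (2.83 to 3.17), compared with 1.20 (1.10 to 1.31) in the Uninjured library. Cycling MSCs had 119, 370, 677 and 290.0 CPM in time order, which was 2.68-fold, 3.55-fold, 2.36-fold and 1.53-fold the level of the remaining MSC lineage cells. Cycling cells also had more UMIs per cell, with medians of 16130 to 19029 in the first 3 libraries and 5200 at 7 dpi, and the part of depth in this difference was not tested.

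Before injury Cd44 was far higher in monocytes, macrophages and neutrophils than in the MSC lineage, and in T and B cells it was near the MSC lineage level. Monocytes and macrophages had 576, 740, 530.3 and 557 CPM in time order, and neutrophils 402, 456, 440.5 and 902 CPM. The macrophage level exceeded that of the MSC lineage 12.6-fold in the Uninjured library (11.9 to 13.4) and 1.38-fold at 3 dpi (1.33 to 1.44). Myogenic cells, gated on Pax7, Myf5, Cdh15, Myod1, Myog, Des and Chrna1, had 34.5, 51.5, 406 and 79.3 CPM, which put 3 dpi 7.89-fold above 1 dpi. T cells had 50.4, 221, 279 and 139 CPM, and B cells 30.3 to 82.4 CPM. Lymphocytes are known to express Cd44, so B cells are no background for this gene.

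**Figure D2:**
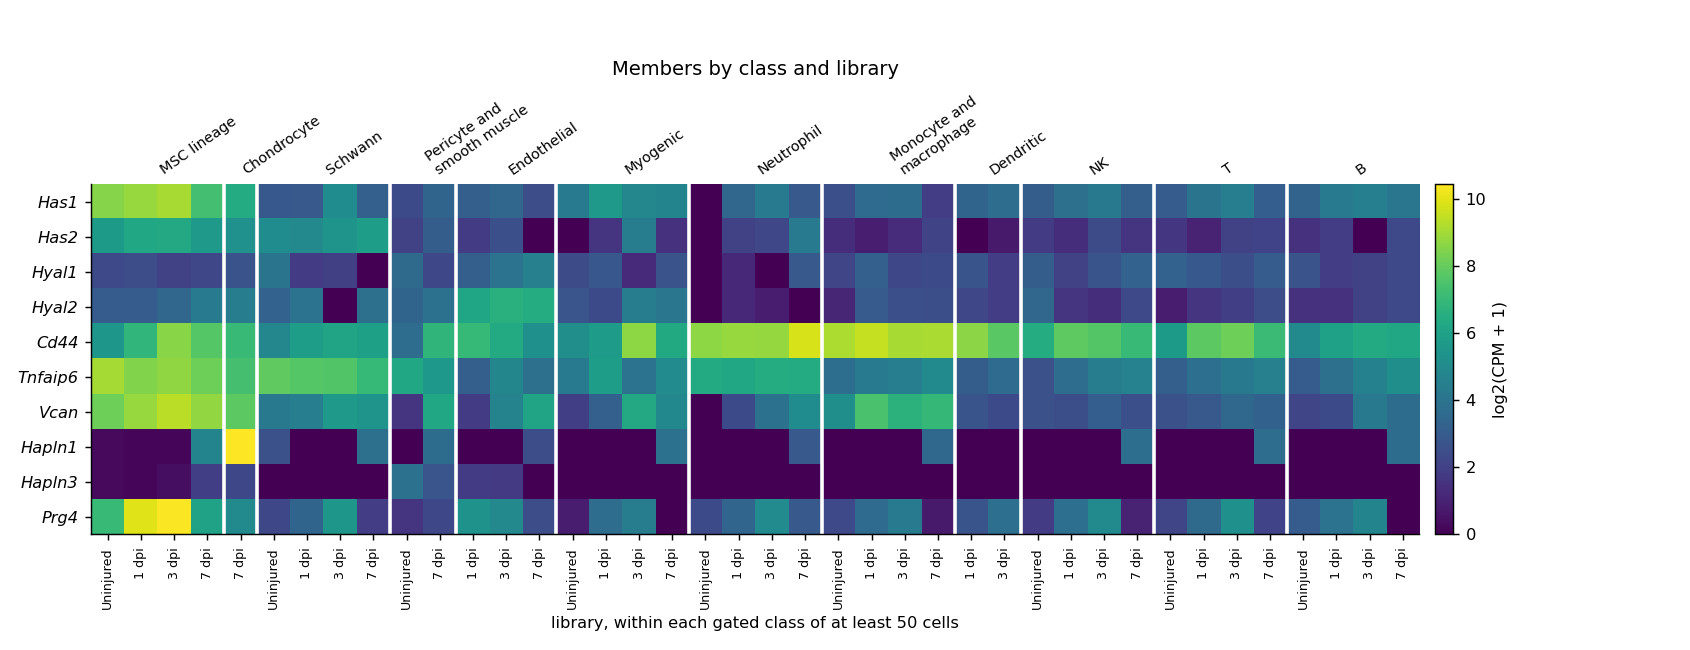
Level of the 10 genes as log2(CPM + 1) in each class and library with at least 50 cells (colour), with 1 column per library within a class. Cd44 was high in neutrophils and in monocytes and macrophages of every library, Hyal2 was highest in endothelial cells, and Hapln1 in chondrocytes at 7 dpi (1385 CPM).

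Tnfaip6 (TSG-6), the hyaluronan-binding protein induced by inflammatory cytokines in many cells, was highest in the Uninjured library within the MSC lineage as a whole, though not in every class or subset. Its MSC lineage level was 524 CPM (519 to 529) in the Uninjured library, 352 CPM (346 to 359) at 1 dpi, 414 CPM (409 to 419) at 3 dpi and 279 CPM (275 to 284) at 7 dpi. The 7 dpi level was 1.87-fold lower than that of the Uninjured library. In adventitial fibroblasts it was 764, 482, 464 and 505 CPM in time order, and in interstitial fibroblasts 338, 253, 338 and 207 CPM. Tnfaip6 UMIs were found in 30.8%, 23.1%, 26.1% and 21.7% of thinned MSC lineage cells, against 0.518% of B cells in the Uninjured library and at most 4% later. Schwann cells had 238, 203, 193 and 125 CPM. Neutrophils had 74.5 to 87.4 CPM over the 4 libraries, against 7.14 to 35.8 CPM in B cells. The ratio of neutrophils to B cells had an interval above 1 in each library but 7 dpi (2.35, 0.931 to 6.24, on 13 and 9 UMIs).

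Vcan, the large proteoglycan of provisional matrix, was also highest at 3 dpi in the MSC lineage. Its MSC lineage level was 282 CPM (278 to 286) in the Uninjured library, 459 CPM (452 to 466) at 1 dpi, 657 CPM (650.0 to 664) at 3 dpi and 424 CPM (419 to 430) at 7 dpi. The highest library was 3 dpi, 2.33-fold above the Uninjured library (2.29 to 2.37). Both fibroblast subsets were highest at 3 dpi, with 765 CPM in adventitial and 575 CPM in interstitial cells, while at 7 dpi adventitial cells held 698 CPM against 352 CPM. Monocytes and macrophages carried 35.4, 173, 105 and 122 CPM in time order, and their level at 1 dpi was 4.90-fold that of the Uninjured library. Neutrophils, the other abundant myeloid cells, had 0 to 32.4 CPM. Myogenic cells had 2.87, 8.23, 76.8 and 27.9 CPM.

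**Figure D3:**
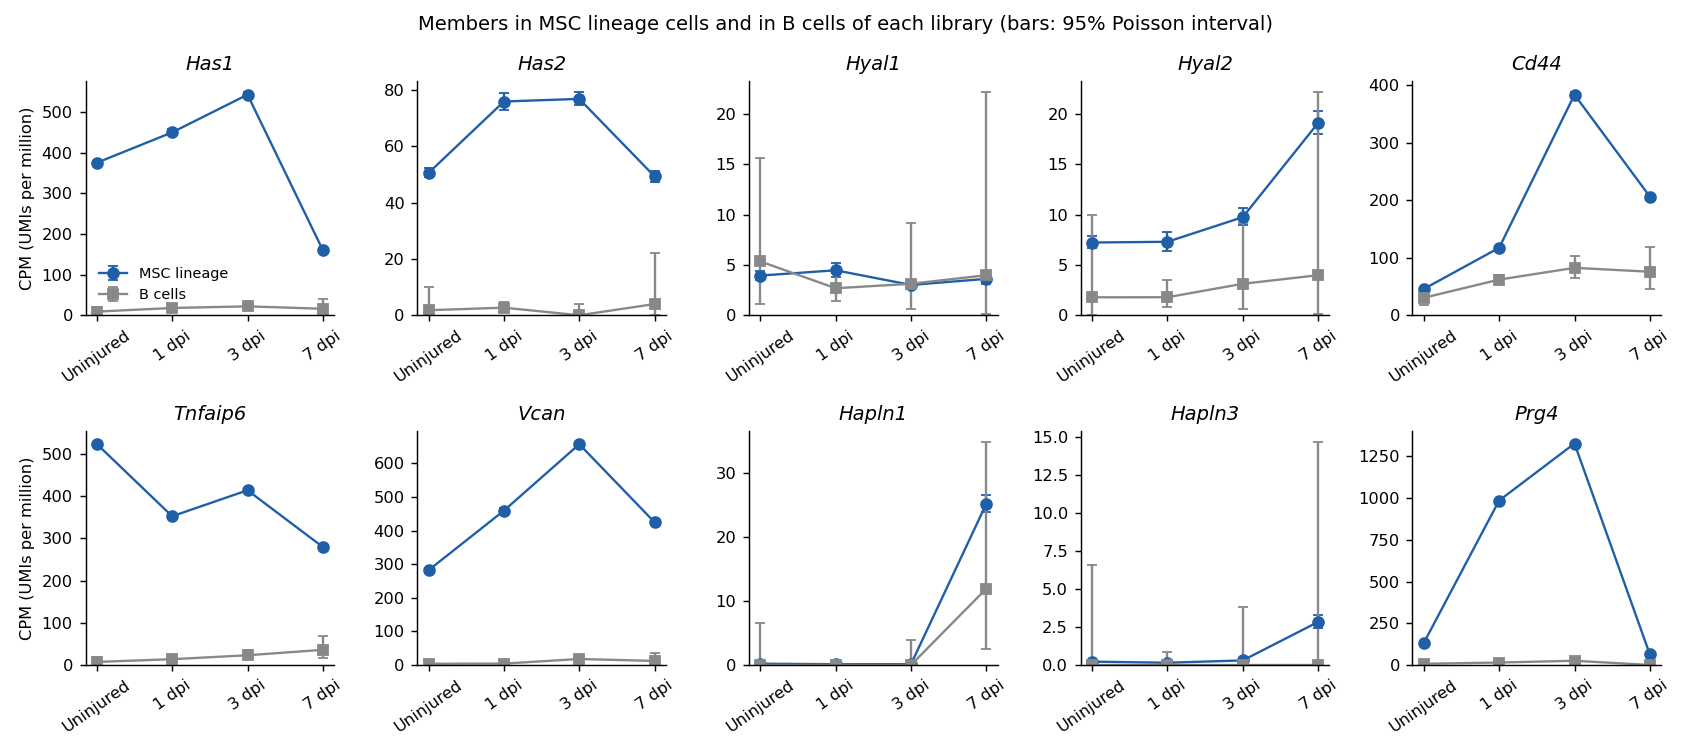
Level in CPM of each gene by library in MSC lineage cells (circles) and in B cells (squares), with exact Poisson 95% intervals as bars; each panel has its own axis from 0. Has1, Cd44, Vcan and Prg4 were highest at 3 dpi, Tnfaip6 in the Uninjured library, and Hyal2, Hapln1 and Hapln3 at 7 dpi, and Hyal1 stayed at the level of B cells.

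The link protein Hapln1 marked the chondrocytes of 7 dpi. Before that time it was nearly absent from the MSC lineage, with 15 UMIs in the Uninjured library, 4 at 1 dpi and 7 at 3 dpi (0.193, 0.117 and 0.130 CPM). At 7 dpi the MSC lineage had 25.2 CPM (24.0 to 26.6), a level that depended on the gate and on depth (15.8 CPM with a looser gate, 47.3 CPM with a stricter one and 47.5 CPM with thinned cells), and chondrocytes 1385 CPM (1368 to 1401), a ratio of 54.9 (52.0 to 57.9). Free RNA gave 11.9 CPM in B cells, 12.3 CPM in T cells and 12.8 CPM in NK cells of this library. The ratio of the MSC lineage to B cells was 2.11 (0.722 to 10.3), an interval that held 1, on 3 UMIs in B cells. The share of MSC lineage cells with a UMI was 9.32%, against 82.4% of chondrocytes and 1.89% of B cells (median UMIs of 3457, 3593 and 1450). Hapln1 was not among the gate markers, although its closest profiles over the class sums were those of the gate markers Snorc, Matn3 and Col2a1 (r of 0.953, 0.948 and 0.948).

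Mesenchymal cells of 7 dpi were next ordered by how many of the 7 cartilage markers they carried, whatever their class. Cells with 0 and with 1 marker had 11.3 and 10.4 CPM of Hapln1, the level of B cells. It was 27.4 CPM with 2 markers, 107 CPM with 3, 395 CPM with 4, 1067 CPM with 5, 2127 CPM with 6 and 3512 CPM with 7 (248 cells). Aggrecan (Acan), the cartilage proteoglycan that Hapln1 clamps to hyaluronan, went from 177 CPM with 0 markers to 4411 CPM with 7. Vcan went the other way, from 450 to 167 CPM, as did Has1 (174 to 70.9 CPM), Cd44 (220 to 112 CPM), Tnfaip6 (301 to 145 CPM) and Prg4 (74.6 to 26.8 CPM), although the steps between neighbouring bins were not all in this direction. Hyal2 stayed between 17.9 and 23.8 CPM over cells with 0 to 6 markers and was 10.1 CPM (5.96 to 15.9) with 7. Median UMIs per cell were 2592 with 0 markers and 5569 with 7, and the number of markers detected depends on this depth. It also depends on free RNA, since the 7 markers summed to 311 CPM in B cells of this library, against 360 CPM in the MSC lineage.

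**Figure D4:**
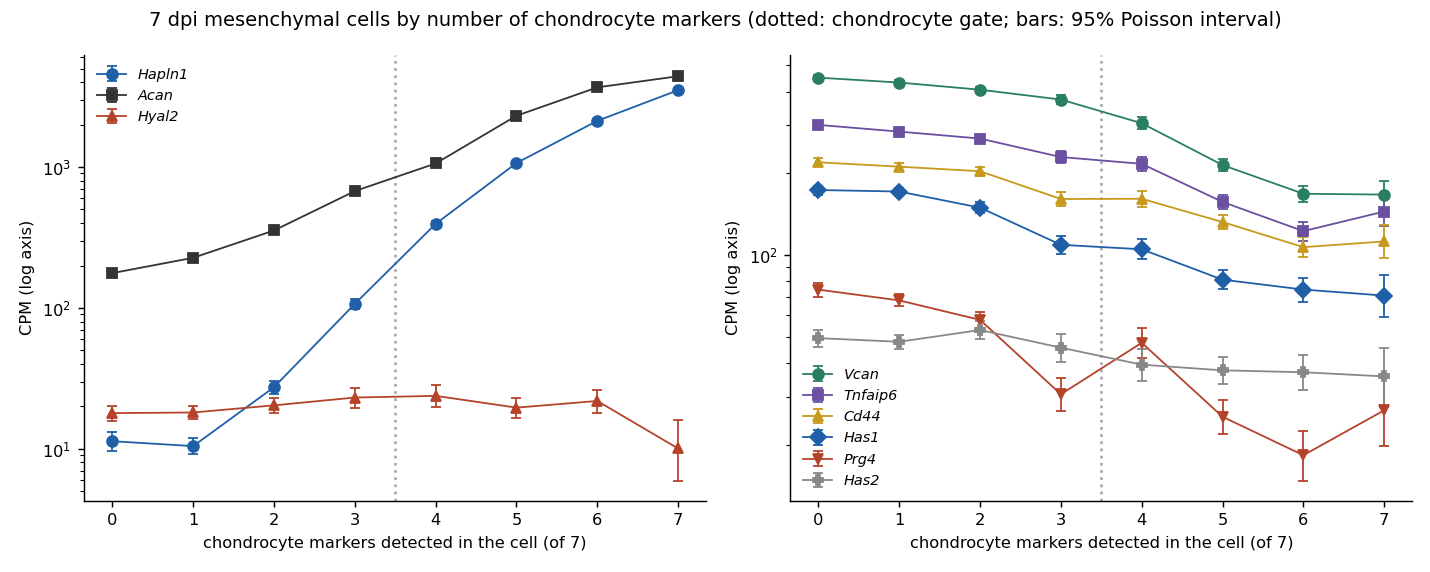
Level in CPM (log axes) of Hapln1, Acan and Hyal2 (left) and of Vcan, Tnfaip6, Cd44, Has1, Prg4 and Has2 (right) in 7 dpi mesenchymal cells by the number of cartilage markers detected, with exact Poisson 95% intervals as bars and the chondrocyte gate as a dotted line. Hapln1 went from 11.3 to 3512 CPM along the axis and Vcan from 450 to 167 CPM.

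As a class, chondrocytes had lower levels than the 7 dpi MSC lineage for 6 of the other genes. The ratio of chondrocytes to MSC lineage was 0.530 for Has1, 0.767 for Has2, 0.638 for Cd44, 0.582 for Tnfaip6, 0.524 for Vcan and 0.467 for Prg4, each with an interval under 1. Hyal2 did not differ between them beyond counting error (1.07, 0.950 to 1.20). Hyal1 was at 5.38 CPM in chondrocytes and 3.62 CPM in the MSC lineage, a ratio of 1.49 (1.17 to 1.89). B cells had 3.98 CPM on 1 UMI, too few to tell either class from background. Hapln3, another link protein, was low in all classes, with at most 2.83 CPM in the MSC lineage and 3.81 CPM (3.00 to 4.77) in chondrocytes at 7 dpi. Its ratio of 7 to 3 dpi in the MSC lineage was 9.51 (5.68 to 17.0), or log2 3.25, and log2 2.50 with thinned cells. Its level of 14.4 CPM in pericytes and smooth muscle cells of the Uninjured library rested on 14 UMIs.

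Prg4, the lubricin gene, was 21.0-fold apart between its highest and lowest library in the MSC lineage. Its MSC lineage level was 132 CPM (129 to 135) in the Uninjured library, 986 CPM (975 to 996) at 1 dpi, 1328 CPM (1318 to 1337) at 3 dpi and 63.3 CPM (61.3 to 65.4) at 7 dpi. The 1 and 3 dpi libraries stood far above the other 2, being 7.47-fold (7.30 to 7.64) and 10.1-fold (9.85 to 10.3) the Uninjured library. At 7 dpi, the lowest, the level was 2.09-fold lower than in the Uninjured library. B cells had 7.14, 14.5, 25.0 and 0 CPM in time order. The interstitial subset had 66.4, 640.2, 1164 and 40.8 CPM and the adventitial subset 107, 1084, 1298 and 116 CPM, so that both were highest at 3 dpi and at 1 dpi stood far above the Uninjured library.

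Prg4 was unevenly spread among cells of one library. After thinning, 4.98% of Uninjured MSC lineage cells, 25.0% at 1 dpi, 35.6% at 3 dpi and 4.42% at 7 dpi had a Prg4 UMI, against 0% to 3.82% of B cells. The 10% of cells with most Prg4 held 75.0% of its thinned UMIs at 1 dpi and 62.9% at 3 dpi, and single cells reached 44 and 39 of 1000 UMIs. This share depends on how many cells hold a UMI and did not set Prg4 apart. It was 67.9% and 54.2% for Has1 and 100% and 63.4% for Cd44 in these libraries. The variance to mean ratio of Prg4 was 6.18 and 5.39, against 1.24 and 1.39 for Vcan and 2.17 and 1.66 for Has1. Cells with a thinned Prg4 UMI had more Cd44 than cells without at each time (1.94-fold, 1.75-fold, 1.15-fold and 1.29-fold in time order) and more Has1 (1.21-fold, 1.68-fold, 1.29-fold and 1.96-fold). Vcan was also higher in these cells at each time. Other members differed: Tnfaip6 was lower in the Uninjured library (0.835-fold, 0.799 to 0.872) and higher later. Has2 was higher beyond counting error only at 3 dpi (1.11-fold, 1.04 to 1.18). Hyal1 was lower at 3 dpi (0.673-fold, 0.480 to 0.937) and Hyal2 at 7 dpi (0.528-fold, 0.344 to 0.779). At 3 dpi cells with a thinned Prg4 UMI also had a median of 9241 UMIs against 5056, and the part of depth was not tested.

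Tenocytes, tendon fibroblasts gated on at least 4 of Tnmd, Thbs4, Fmod, Mkx, Scx and Kera, had the highest Prg4 and the lowest Has1 level of the 4 mesenchymal subsets in the Uninjured library and at 3 dpi. In the Uninjured library 84 tenocytes had 1332 CPM of Prg4, 11.3-fold (10.6 to 12.0) the remaining MSC lineage, and at 3 dpi 86 tenocytes had 6579 CPM, 5.34-fold (5.20 to 5.48) the rest. At 7 dpi 664 cells passed the gate and had 73.3 CPM. The summed level of the 6 tenocyte markers in the gated cells was 18449 CPM in the Uninjured library, 19222 CPM at 3 dpi and 4539 CPM at 7 dpi, so that the cells gated at 7 dpi were not like those gated before. The 5 markers of synovial lining (Clic5, Tspan15, Htra4, Col22a1 and Hbegf) summed to 469, 419 and 144 CPM in the tenocytes of these libraries, with 1 marker at 0 in the Uninjured library. They summed to 30.7 to 57.5 CPM in the MSC lineage. Endothelial cells had 332, 663 and 376 CPM of the same list at 1, 3 and 7 dpi, so its sum was not particular to tenocytes. The part of these markers in the Prg4 level was not tested. Has1 in tenocytes was 4.52 CPM in the Uninjured library, where the remaining MSC lineage had 379 CPM, and 131 CPM at 3 dpi. Tnfaip6 and Vcan were 70.0 and 53.1 CPM in Uninjured tenocytes, against 529 and 285 CPM in the remaining MSC lineage.

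The size of these differences was set against all genes with at least 100 UMIs in the MSC lineage of the libraries compared. Between 1 dpi and the Uninjured library 6.57% of 12734 genes were at least 2-fold higher and 3.60% at least 2-fold lower, and among the 8 members past the filter Cd44 and Prg4 were higher and 0 lower. The median log2 ratio was 0.42 over these members and 0.16 over all genes. Against this shift Has1 (0.26) lay above and Hyal2 (0.01) below the median gene. With median-of-ratios scaling, which removes this shift, 590 genes were higher and 651 lower in place of 837 and 459. Between 3 and 1 dpi 5.13% of 12524 genes were higher and 4.51% lower, and of 8 members Cd44 was higher and 0 lower. Between 7 and 3 dpi 8.28% of 13157 genes were higher and 6.60% lower, and of all 10 members Hapln1 and Hapln3 were higher and Has1 and Prg4 lower. Hapln1 and Hapln3 passed the filter only at this step, through their 7 dpi UMIs. That they were counted as higher thus followed from the filter. The median of the members was then -0.60, against -0.08 over all genes. Hyal2 (1.96-fold higher) and Cd44 (1.86-fold lower) lay just inside the 2-fold line at this step, and Hyal2 passed it with thinned cells (log2 1.04) and with a looser gate (1.03). The number of members higher at this step was 3 with linear SD limits, a looser gate, median-of-ratios scaling or without the 50 most abundant genes.

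**Figure D5:**
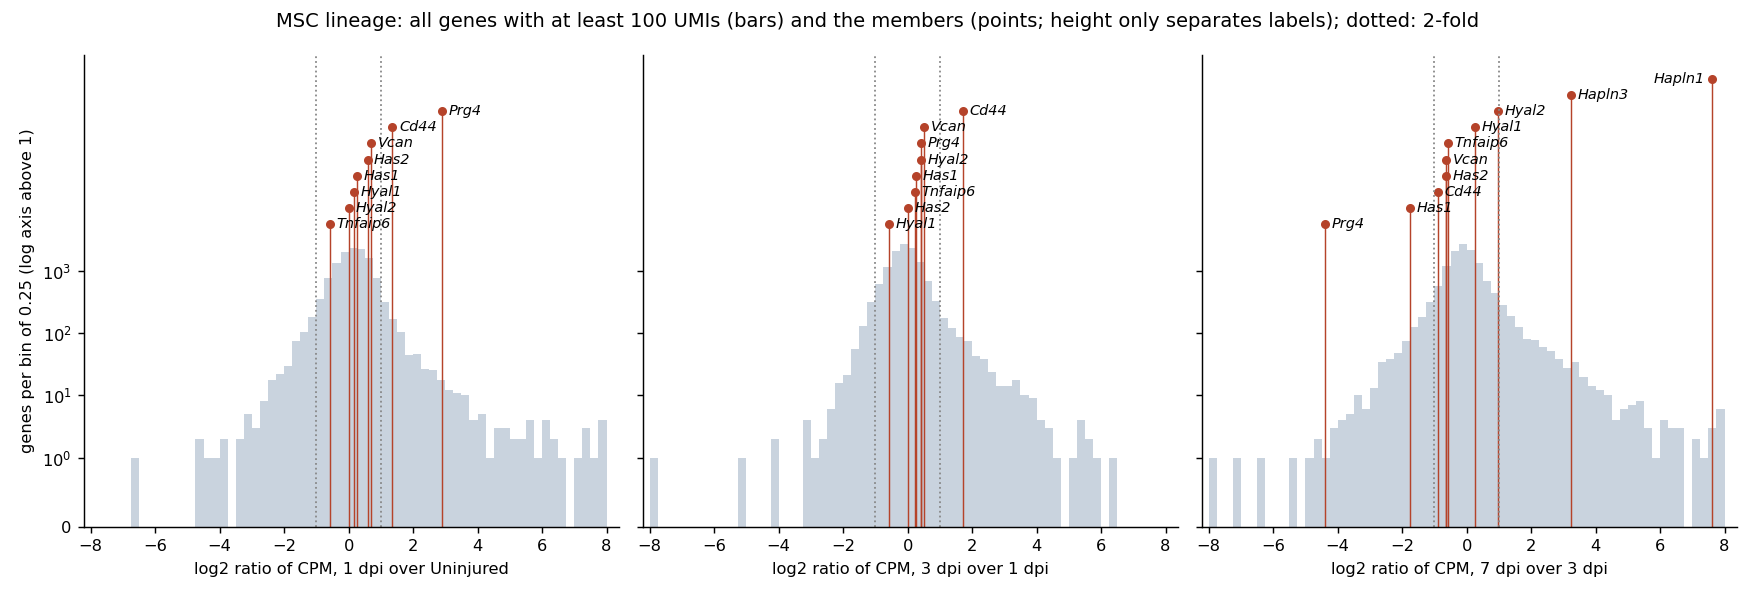
Histogram of the log2 ratio of CPM between successive libraries for all genes with at least 100 UMIs and UMIs in both libraries of the MSC lineage (bars, log axis above 1, outermost bins also holding all larger ratios), with the members as points whose height only separates the labels. Prg4 at log2 2.90 (1 dpi over Uninjured) and -4.39 (7 over 3 dpi), Cd44 at 1.71 (3 over 1 dpi) and Hapln1 at 7.60 (7 over 3 dpi) lay in the tails, and most other members within 2-fold (dotted lines). The MSC lineage level of Hapln1 at 7 dpi (25.2 CPM) was not above that of B cells (11.9 CPM) beyond counting error, on only 3 UMIs in B cells.

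Of 30 further genes of the hyaluronan pathway in the count matrices, 16 to 18 passed the same filter at each step. In the supply of precursors, UDP-glucose dehydrogenase (Ugdh) had 376, 424, 342 and 162 CPM in the MSC lineage in time order, the N-acetylglucosamine pathway enzyme Uap1 248, 389, 327 and 95.9 CPM, and Gfpt2, which opens the hexosamine pathway, 311, 311, 210.5 and 47.2 CPM. These 3 were at least 2-fold lower at 7 dpi than at 3 dpi. Of the other precursor enzymes on the list, Ugp2 had 173, 178, 159.8 and 105 CPM, 1.52-fold lower at this step, and Gfpt1 61.5, 71.7, 74.9 and 76.3 CPM, with no difference at this step beyond counting error (1.02, 0.976 to 1.06). Of the breakdown proteins, Cemip2 was higher at each step (4.77, 10.8, 32.9 and 67.5 CPM) and Cemip was found in numbers only from 3 dpi on (0.0257, 0.0584, 3.15 and 9.77 CPM). In chondrocytes Cemip2 and Cemip had 69.5 and 17.0 CPM.

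Among partners of Tnfaip6 in matrix cross-linking, the pentraxin Ptx3 had 142, 253, 568 and 187 CPM in time order, 2.25-fold higher at 3 than at 1 dpi and 3.03-fold lower at 7 than at 3 dpi. Itih5, an inter-alpha-inhibitor heavy chain, was highest in the Uninjured library and had 965, 578, 379 and 126 CPM, the last step being 3.01-fold. The hyaluronan-mediated motility receptor Hmmr, also a mitotic gene, had 6.75, 3.27, 36.8 and 30.3 CPM, while the summed level of the 6 proliferation markers was 66.2, 62.5, 368 and 346 CPM. Acan had 0.103, 0.380, 1.40 and 292 CPM in the MSC lineage and 2523 CPM in chondrocytes. Its level in B cells was not computed. The cartilage markers of the gate summed to 360 CPM in the MSC lineage of 7 dpi, 311 CPM in B cells and 213 CPM in endothelial cells. The part of free RNA in the Acan level of the MSC lineage was not tested. Genes higher at 1 dpi were Hyal3, Cemip2 and Stab1 (3 of 16, against 6.57% of all genes), and those lower Hmmr and Itih2 (2 of 16, against 3.60%). Hyal3 rested on 59 and 65 UMIs and shares exons with Hyal1, and Stab1 rested on 118 and 127 UMIs. The monocyte and macrophage markers summed to 4.39 CPM in the MSC lineage of the Uninjured library and 29.0 CPM at 1 dpi. The part of free RNA in the Stab1 level was not tested. Of 17 genes at the next step Cemip, Cemip2, Hmmr and Ptx3 were higher and 0 lower (5.13% and 4.51% of all genes), and of 18 at the last step Cemip, Cemip2 and Acan were higher and Ugdh, Uap1, Gfpt2, Ptx3, Itih5 and Tlr4 lower (8.28% and 6.60%). Cemip at 3 over 1 dpi and Acan at 7 over 3 dpi passed the filter only through the later library. Medians of the list were 0.26, -0.19 and -0.72 at the 3 steps, against 0.16, -0.08 and -0.08 over all genes.

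Genes with the most similar profile were named over 40 sums of a class in a library and 12944 genes by Pearson's r of log2(CPM + 1), as a description, since sums of one library share its depth and free RNA. Nearest to Prg4 were Myoc (0.856), Cxcl13 (0.852) and Cxcl5 (0.836), and these were the same 3 with log2(CPM + 10). Has1 was nearest to Ms4a4d (0.883), Cxcl13 (0.875) and Podn (0.875), of which 2 stayed among the first 3 with the larger constant. Tnfaip6 lay nearest to Ogn (0.882), Vcan to Steap3 (0.843), Cd44 to Lgals3 (0.837), and Hyal2 to Bvht (0.845). For Has2 the first was Has2os (0.890), and none of its 3 stayed. Hyal1 reached only 0.639, and Hapln3 had too few UMIs (300) for this comparison.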

How the data were processed

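Single-cell RNA-seq (10x Genomics) of 4 pooled tibial muscle libraries was used. The authors called cells and counted UMIs with Cell Ranger 5.0.0 and its STAR aligner, with mm10 and Seurat 3.1.1 in the submitters' processing notes, and the deposited matrices hold raw UMI counts per gene and cell (91146335 to 129007669 UMIs per library). Libraries were evened in depth by down-sampling when the authors aggregated them, and it is unknown on which side of that step these matrices lie. Replicate libraries and strand settings were not given in the sources used here.

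Cells beyond 2 SD of log10 UMIs or genes, above 10% mitochondrial UMIs or in the top 7.5% of Scrublet scores of their library were left out (62665 barcodes, 52852 cells kept). Classes were gated on distinct markers detected: at least 3 markers of a non-mesenchymal list, 5 of 8 mesenchymal markers, or 4 of 7 cartilage markers. Cells that reached several classes were left out, except that chondrocytes could also reach the mesenchymal gate. Cells that reached both the NK and T lists, or both the monocyte and dendritic lists, took the class with more markers, and ties were left out. Subsets needed 3 markers of their own list and at most 2 of the other (tenocytes 4 of 6). The markers were listed before the gate numbers, which were set after seeing how the markers were distributed. Of MSC lineage cells, 94.6% fell in a Leiden cluster of the same name, and of the other classes of the results 87.8% (chondrocytes) to 99.6% (B cells), except for dendritic cells, of which 0 of 291 did. UMIs were summed per class and library (at least 50 cells) and given as CPM with exact Poisson intervals, ratios with exact conditional binomial intervals and shares with Clopper-Pearson intervals, all at 95% and for counting error only. No p-value was computed, since each group was 1 library. A count of 0 allows up to 3 UMIs. Positions, overlaps and promoters came from GENCODE M21 and RefSeq on GRCm38. Scripts were tested on simulated data (Python 3.11.15, numpy 2.4.6, scipy 1.17.1, scanpy 1.11.5). The members, the pathway list and the markers were chosen with earlier results of these data known. Named genes were the members, the pathway list, the 3 nearest profiles of each member with at least 500 UMIs, and the markers. Alternatives covered doublets, filter limits, gates, Leiden classes, thinning, scaling, UMI filters, fold limits and the added constant.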

Additional observations from a re-analysis of the deposited data

Results flagged for a closer look

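Cell classes of the same libraries moved in opposite directions for 8 pairs of class and step, each with both intervals away from no change. With 1 library per time point these differences were not tested.

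Within the fibroblasts, Has1 was lower at 3 dpi than at 1 dpi in adventitial cells (log2 -0.27) and higher in interstitial cells (1.22). Has2 did the same (-0.58 and 0.66). The interstitial Has2 level at 3 dpi depended on depth (78.9 CPM, but a mean of only 0.0478 UMIs per thinned cell). These Has2 ratios were not tested with thinned cells. Against the MSC lineage, where Has1 was higher at this step (0.27), myogenic cells had a lower level (-0.80), though with Leiden classes the value was 0.24, with an interval that held 0. The myogenic level at 3 dpi (27.2 CPM) was not above that of B cells beyond counting error (1.24-fold, 0.760 to 2.11). At 1 dpi it rested on 23 UMIs. Cd44 was higher at 3 dpi than at 1 dpi in the MSC lineage (1.71) and lower in monocytes and macrophages (-0.48) and in dendritic cells (-0.83). The dendritic value was -0.22 with a stricter gate and -0.02 with thinned cells, both with intervals that held 0, and with Leiden classes it could not be computed. At 7 dpi it was lower than at 3 dpi in the MSC lineage (-0.89) and higher in neutrophils (1.03), of which 105 cells were gated at 7 dpi. With thinned cells these values were -0.24 and 0.49. Tnfaip6 was lower at 1 dpi than in the Uninjured library in the MSC lineage (-0.57) and higher in monocytes and macrophages (0.58), where its level (12.7 and 19.1 CPM) lay near that of B cells. Vcan was higher at 3 dpi than at 1 dpi in the MSC lineage (0.52) and lower in monocytes and macrophages (-0.73).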

How the results depend on the processing

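No paired analysis was possible because each group was a single library. Of 26 log2 ratios of members in the MSC lineage, 26 stayed within their counting interval with a 20% mitochondrial limit and 25 with Leiden classes, but only 9 with thinned cells and 8 with median-of-ratios scaling, with the largest shift 0.95 (looser gate), 0.91 (stricter gate) and 0.75 (thinned). Shifts over 1.5-fold were those of Hapln1 at 7 over 3 dpi with a looser (6.65) and a stricter gate (8.50, against 7.60) and, with thinned cells, of Hapln3 at this step (2.50, against 3.25), Cd44 at this step (-0.24, against -0.89) and Hyal2. In other classes 11 of 55 ratios moved as far with thinned cells (at most 2.22) and 8 of 54 with Leiden classes (at most 1.93). Ratios within fibroblast subsets were computed under the reported setting only. Mean thinned Has1 UMIs per adventitial cell were 0.805 at 1 dpi and 0.787 at 3 dpi. The log2 ratio of -0.27 at this step was thus not stable to thinning. Thinning turned Hyal2 at 3 over 1 dpi (-0.30), on fewer than 100 thinned UMIs in each of these libraries. In small classes Tnfaip6 in Schwann cells at 7 over 3 dpi turned with a stricter gate (0.71), and Leiden classes turned Has1 in myogenic cells at 3 over 1 dpi (0.24), Vcan in myogenic cells at 7 over 3 dpi (0.47) and Prg4 in T cells at 3 over 1 dpi (-0.12). The cause was not tested.

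Counts of genes past 2-fold moved with the filter and threshold as their construction gives. For higher and lower genes at 1 dpi over Uninjured (837 and 459) they were 3670 and 2981 with a filter of 1 UMI, 434 and 228 with 500 UMIs, 194 and 65 at 4-fold, and 347 and 179 with thinned cells. At 3 over 1 dpi (642 and 565) they were 3260 and 2477, 365 and 301, 188 and 33, and 184 and 73 in the same order. At 7 over 3 dpi (1089 and 868) they were 4287 and 2981 with 1 UMI, 403 and 172 at 4-fold, and the higher genes 510 with 500 UMIs and 547 with thinned cells. Members past 2-fold at 1 dpi (2 higher) were 1 with linear SD limits, with thinned cells and at 4-fold. At 3 over 1 dpi (1 higher) they were 2 with a filter of 1 UMI and 0 at 4-fold. At 7 over 3 dpi (2 higher and 2 lower) they were 1 higher with 500 UMIs, 1 lower at 4-fold, and 3 higher with linear SD limits, a looser gate, median-of-ratios scaling and without the 50 most abundant genes. Depth limits Hyal1, Hapln3 and, before 7 dpi, Hapln1, and classes near 50 cells.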

Other observations

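Within the MSC lineage some members were higher in cells that held another member. Cells with a thinned Has1 UMI had more Tnfaip6 than cells without, with 795 against 443 CPM in the Uninjured library, 562 against 274 CPM at 1 dpi, 509 against 361 CPM at 3 dpi and 403 against 263 CPM at 7 dpi. Cells with a thinned Cd44 UMI had more Has2 at each time, with 68.0 against 49.6 CPM, 104 against 72.6 CPM, 102 against 67.5 CPM and 68.3 against 45.2 CPM in time order. These pairs were not particular: Has2, Cd44, Vcan and Prg4 were also higher in cells with Has1 at each time, and Has1 and Vcan in cells with Cd44. Hyal1 and Hyal2 were not higher in either beyond counting error, and in part they were lower. Hyal1 was lower in cells with Has1 at 1 dpi (0.357-fold, 0.206 to 0.587) and at 3 dpi (0.646-fold, 0.445 to 0.923). In cells with Cd44 it was lower at 3 dpi (0.579-fold) and 7 dpi (0.626-fold). At 7 dpi cells with Has1 also had less Hyal2 (0.697-fold, 0.557 to 0.862), Hapln1 (0.805-fold) and Hapln3 (0.443-fold). The other intervals of Hyal1 and Hyal2 held 1. Median depth of these groups differed, most at 3 dpi (8246 against 5276.5 UMIs for Has1, and 10704 against 5435 for Cd44), and its part was not tested. Adventitial cells of the Uninjured library also had more Has1 (783 against 61.6 CPM) and more Tnfaip6 (764 against 338 CPM) than interstitial cells. The part of the subsets in these pairs was not tested.

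In pericytes and smooth muscle cells, gated in numbers only in the Uninjured (116 cells) and 7 dpi (245 cells) libraries, Cd44 was 12.3 and 114 CPM and Vcan 2.05 and 72.9 CPM.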
